A study of Homo sapiens with 24 samples.

Results

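Described here are 9 genes of MHC class I antigen presentation, HLA-B, HLA-C, HLA-E, HLA-F, B2M, TAP1, TAP2, PSMB8 and PSMB9. They were read by 12 microarray probes, those whose RefSeq transcript belonged to 1 of the 9 genes, out of 31065 probes kept and 24647 genes tested. The cells were HepaRG, a human line from a hepatocellular carcinoma, held in serum-free medium and collected after 72 h. The study read 24 arrays of a single colour, from 8 conditions with 3 replicates each, and asked what Wnt3a, a Wnt ligand, and the loss of its signal do to gene activity. Untransfected cells were left untreated, given 200 ng/ml of mouse Wnt3a, given 300 ng/ml of mouse FZD8_CRD (the soluble Wnt-binding domain of a Frizzled receptor), or given FZD8_CRD with Wnt3a. Cells electroporated with 80 pmol of a control siRNA, or with 80 pmol of an siRNA against CTNNB1, the gene of beta-catenin, were cultured with or without 200 ng/ml of Wnt3a.

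The groups model loss of Wnt signalling in separate ways. FZD8_CRD acts outside an untransfected cell, while the CTNNB1 siRNA acts inside an electroporated cell and has the control siRNA as its reference. Control siRNA against no siRNA therefore reads electroporation and siRNA together, and no group was electroporated without siRNA. All of it comes from a single line and a single time, and both proteins were of mouse origin. Replicate number was also slide number, with each slide carrying 1 array of every condition.

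MHC class I molecules show short peptides on the surface of nearly all nucleated cells to cytotoxic T cells and natural killer cells. The immunoproteasome, which contains PSMB8 and PSMB9 in place of constitutive subunits, cuts proteins into peptides. TAP1 and TAP2 carry the peptides into the endoplasmic reticulum, where they are loaded on a heavy chain (HLA-B, HLA-C, HLA-E or HLA-F here) that is paired with B2M.

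Sequences around the transcription start, 300 bases each, were found for 8 of the 9 genes, in 10 windows; HLA-E had no entry. They come from RefSeq on build GRCh38.p14 and were searched on both strands for 7 short motifs, as description only. Capitals below mark every match. The core of the interferon-stimulated response element (ISRE), GAAANNGAA, lay in 5 of the 10 member windows, against 8.11% of the 35116 windows of all genes. These were 1 window each of HLA-F, B2M, TAP1, TAP2 and PSMB8. A GAS element, TTCNNNGAA, lay in 2 of the 10, the second windows of TAP1 and PSMB8 (7.66% of all windows). A kappa B site, GGGNNTTCC, lay in 3, of HLA-B, B2M and PSMB8 (6.58%). Only this fixed length was searched. The bases gggactttcc in the TAP1 stretch and gggaaagtccc in the B2M window therefore stand unmarked below, and a lack of this match is not a lack of other kappa B forms. The CCAAT box lay in 6 of the 10 windows, each of another member (34.6%). TGACG, the core of the cyclic AMP response element, also lay in 6, each of another member (24.6%). Of the forms bound by the TCF factors that work with beta-catenin, CTTTGAA was in no member window (4.43% of all) and CTTTGAT in 1, at the second start of TAP1 (2.62%).

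HLA-B (chr6:31357130-31357429, minus strand), printed because it holds the kappa B site, the TGACG core and 3 CCAAT boxes of a heavy chain gene:
HLA-B: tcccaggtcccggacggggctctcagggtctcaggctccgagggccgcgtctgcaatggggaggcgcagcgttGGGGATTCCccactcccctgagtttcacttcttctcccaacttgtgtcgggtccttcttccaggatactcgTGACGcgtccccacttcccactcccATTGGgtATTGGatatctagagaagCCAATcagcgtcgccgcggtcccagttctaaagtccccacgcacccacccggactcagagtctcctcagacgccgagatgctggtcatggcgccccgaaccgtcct
B2M (chr15:44711267-44711566, plus strand), printed for its overlapping ISRE cores:
B2M: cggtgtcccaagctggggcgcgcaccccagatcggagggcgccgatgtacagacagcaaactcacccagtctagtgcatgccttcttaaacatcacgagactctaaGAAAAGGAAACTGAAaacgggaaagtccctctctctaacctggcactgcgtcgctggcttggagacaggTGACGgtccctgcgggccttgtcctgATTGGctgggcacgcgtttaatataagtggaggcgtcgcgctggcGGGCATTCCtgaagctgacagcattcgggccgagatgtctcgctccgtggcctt
TAP1 (a stretch of 120 bases at chr6:32853735-32853854, minus strand), printed for its overlapping ISRE cores:
TAP1: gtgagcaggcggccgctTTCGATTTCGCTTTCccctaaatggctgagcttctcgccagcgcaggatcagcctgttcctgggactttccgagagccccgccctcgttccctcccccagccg
PSMB9 (chr6:32853942-32854241, plus strand), printed because this gene had the largest differences among the members, with its CCAAT box and its CGTCA in capitals:
PSMB9: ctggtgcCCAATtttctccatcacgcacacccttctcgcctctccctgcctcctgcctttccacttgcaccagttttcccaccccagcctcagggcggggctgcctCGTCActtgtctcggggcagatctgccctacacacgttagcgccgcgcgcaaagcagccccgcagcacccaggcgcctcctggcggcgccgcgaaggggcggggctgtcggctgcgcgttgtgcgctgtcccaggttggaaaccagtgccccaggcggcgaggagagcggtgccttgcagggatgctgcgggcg
TAP2 (chr6:32838690-32838989, minus strand), printed for the ISRE core that lies close to a TGACG core:
TAP2: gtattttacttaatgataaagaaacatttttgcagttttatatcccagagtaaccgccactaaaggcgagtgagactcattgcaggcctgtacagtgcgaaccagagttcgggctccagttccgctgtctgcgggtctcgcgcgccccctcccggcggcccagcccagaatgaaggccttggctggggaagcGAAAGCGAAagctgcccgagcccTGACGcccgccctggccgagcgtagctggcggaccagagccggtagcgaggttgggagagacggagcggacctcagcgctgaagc
PSMB8 (second of its starts, chr6:32843998-32844297, minus strand), printed for its ISRE core, GAS element and kappa B site:
PSMB8: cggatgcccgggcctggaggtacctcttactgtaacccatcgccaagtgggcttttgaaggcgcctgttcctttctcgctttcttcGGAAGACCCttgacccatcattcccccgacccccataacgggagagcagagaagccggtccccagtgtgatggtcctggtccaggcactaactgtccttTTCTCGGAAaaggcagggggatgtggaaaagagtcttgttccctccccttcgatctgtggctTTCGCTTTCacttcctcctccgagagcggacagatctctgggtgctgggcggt
TAP1 and PSMB9 lie head to head on chromosome 6, on opposite strands, and the windows of their starts overlap at 32853942 to 32853954. The CCAAT box of TAP1 and that of PSMB9 are the same bases in this overlap, so this box was counted for both genes. Counted in bases from the start, the ISRE cores of TAP1 began at -133 and -127, and those of B2M at -144 and -138. That of TAP2 began at -58, and that of PSMB8 at -3 from its second start. In the PSMB9 window the motif nearest to the start, CGTCA, began at -144. The printed TAP1 stretch with its ISRE cores lies upstream of PSMB9 as well, outside the 250 bases searched before the PSMB9 start.

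**Figure D1:**
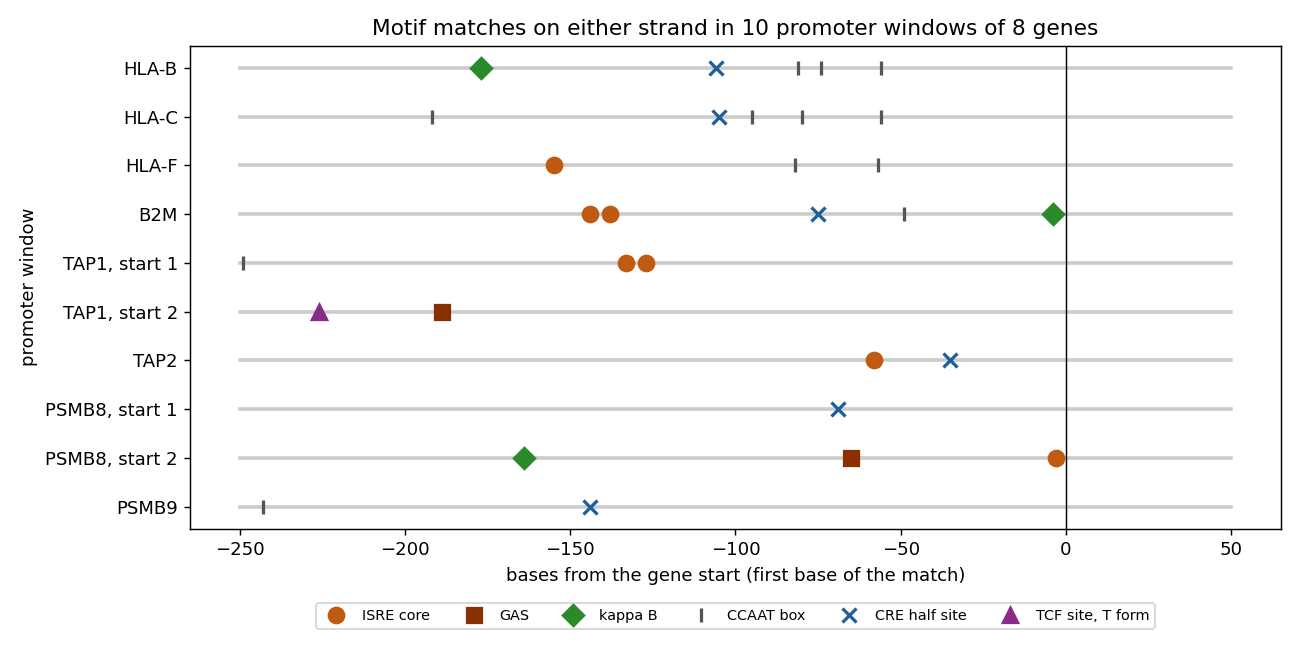
Positions of the motifs found in 10 windows of 300 bases from 8 members; the x axis is the distance in bases from the transcription start, each line is a window and each mark the first base of a match. ISRE cores stand in windows of 5 members, and PSMB9 shows a CCAAT box and a TGACG core (blue cross).

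All 12 member probes read well above background on all 24 arrays, and none was saturated. Levels are log2 of background-subtracted intensity divided by the 75th percentile of the same array, so 0 is that percentile. A gene with several probes was read by its brightest, and levels of different probes are not compared.

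The heavy chains bind the peptide and carry it to the surface. HLA-B ranged from 6.81 to 7.33 over the 24 arrays, HLA-C from 6.86 to 7.73, HLA-E from 5.47 to 6.05 and HLA-F from 6.76 to 7.55. Means of HLA-B ran from 7.22 in untreated cells to 6.94 with CTNNB1 siRNA, and those of HLA-C from 7.41 in untreated cells to 7.04 with FZD8_CRD and Wnt3a. HLA-E ran from 5.89 with control siRNA to 5.54 with CTNNB1 siRNA and Wnt3a, and HLA-F from 7.31 in untreated cells to 6.94 with FZD8_CRD and Wnt3a. Conditions next to each other in these orders overlapped, except that CTNNB1 siRNA lay apart from FZD8_CRD with Wnt3a for HLA-E and from CTNNB1 siRNA with Wnt3a for HLA-F.

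Heavy chain levels differed between slides, and not the same way for each gene. HLA-C read 7.36, 7.36 and 7.51 on slides 1, 2 and 3 in untreated cells and 7.14, 7.01 and 7.73 with Wnt3a. With control siRNA it read 7.25, 7.19 and 7.48, and with CTNNB1 siRNA 7.00, 7.06 and 7.43. Slide 3 was the highest in each of these conditions, and the conditions overlapped across slides. In untreated cells HLA-B (7.33, 7.21 and 7.13), HLA-E (6.05, 5.91 and 5.64) and HLA-F (7.55, 7.36 and 7.03) ran the other way, with slide 3 the lowest, although the second HLA-B probe (6.74, 6.66 and 6.84) was highest on slide 3. Over 24 arrays the heavy chain genes correlated pair by pair at 0.20 to 0.90, and at 0.87 to 0.94 once slide means were removed.

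B2M is the light chain without which the heavy chain is not held at the surface. It ranged from 6.58 to 7.03 over the arrays, with means from 6.93 in untreated cells to 6.75 with Wnt3a. Its means spanned 0.18, the narrowest of the 9 members, and conditions next to each other in its order all overlapped. Its 10 spots per array had a median standard deviation of 0.034.

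TAP1 and TAP2 are the 2 subunits of the peptide transporter. TAP1 read 4.49, 4.77 and 4.65 in untreated cells, 4.35, 4.66 and 4.47 with Wnt3a, 4.96, 5.01 and 5.01 with control siRNA, and 4.76, 4.85 and 4.66 with control siRNA and Wnt3a. It read 4.74, 4.80 and 4.66 with CTNNB1 siRNA, 4.68, 4.65 and 4.45 with CTNNB1 siRNA and Wnt3a, 5.04, 5.01 and 4.77 with FZD8_CRD, and 4.86, 4.76 and 4.59 with FZD8_CRD and Wnt3a. Control siRNA lay above every untreated and every Wnt3a array, whereas FZD8_CRD on slide 3 met the top of the untreated arrays. Means ordered the conditions from control siRNA (4.99) through FZD8_CRD (4.94) and the same groups with Wnt3a (4.76 and 4.74), then CTNNB1 siRNA (4.73) and untreated (4.64), to CTNNB1 siRNA with Wnt3a (4.59) and Wnt3a (4.49). Each of these overlapped the next.

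TAP2 read 1.77, 1.88 and 2.02 in untreated cells, 1.99, 2.27 and 1.93 with Wnt3a, 2.36, 2.39 and 2.41 with control siRNA, and 2.27, 2.36 and 2.34 with control siRNA and Wnt3a. It read 2.06, 2.20 and 2.20 with CTNNB1 siRNA, 2.26, 2.28 and 2.25 with CTNNB1 siRNA and Wnt3a, 2.54, 2.61 and 2.02 with FZD8_CRD, and 2.16, 2.26 and 2.12 with FZD8_CRD and Wnt3a. Control siRNA was above all untreated arrays, and FZD8_CRD was high on slides 1 and 2 but level with untreated cells on slide 3. By means, control siRNA and FZD8_CRD stood highest (2.39 each), followed by control siRNA with Wnt3a (2.33), CTNNB1 siRNA with Wnt3a (2.27), FZD8_CRD with Wnt3a (2.18), CTNNB1 siRNA (2.15), Wnt3a (2.06) and untreated cells (1.89), each overlapping the next.

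PSMB8 and PSMB9 are catalytic subunits that replace PSMB5 and PSMB6 in the immunoproteasome. PSMB8 read 2.94, 3.06 and 2.84 in untreated cells, 2.82, 2.87 and 2.88 with Wnt3a, 3.47, 3.43 and 3.31 with control siRNA, and 3.23, 3.30 and 3.13 with control siRNA and Wnt3a. It read 3.07, 3.01 and 2.79 with CTNNB1 siRNA, 2.89, 2.91 and 2.82 with CTNNB1 siRNA and Wnt3a, 3.42, 3.46 and 2.99 with FZD8_CRD, and 3.22, 3.17 and 3.02 with FZD8_CRD and Wnt3a. Control siRNA was high on all slides, CTNNB1 siRNA lay back among the untreated arrays, and FZD8_CRD on slide 3 overlapped the untreated arrays. Its means ran from control siRNA (3.40) over FZD8_CRD (3.29), the same groups with Wnt3a (3.22 and 3.13), CTNNB1 siRNA (2.96) and untreated (2.95) to CTNNB1 siRNA with Wnt3a (2.87) and Wnt3a (2.86), and neighbours overlapped throughout.

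PSMB9 read 3.21, 3.28 and 3.36 in untreated cells, 2.66, 2.83 and 3.16 with Wnt3a, 3.74, 3.71 and 3.64 with control siRNA, and 3.42, 4.02 and 3.88 with control siRNA and Wnt3a. It read 3.70, 3.65 and 3.43 with CTNNB1 siRNA, 3.60, 3.53 and 3.45 with CTNNB1 siRNA and Wnt3a, 4.01, 4.06 and 4.01 with FZD8_CRD, and 4.19, 4.28 and 4.06 with FZD8_CRD and Wnt3a. The groups with FZD8_CRD were the highest, met only by a single array with control siRNA and Wnt3a, and Wnt3a alone was the lowest, without overlap. The order of means was FZD8_CRD with Wnt3a (4.18), FZD8_CRD (4.02), control siRNA with Wnt3a (3.78), control siRNA (3.70), CTNNB1 siRNA (3.59), CTNNB1 siRNA with Wnt3a (3.53), untreated (3.28) and Wnt3a (2.88). Neighbours without overlap were the first and second, CTNNB1 siRNA with Wnt3a and untreated, and untreated and Wnt3a. Means of PSMB9 spanned 1.29, against 0.55 for PSMB8, 0.50 for each of TAP1 and TAP2, and at most 0.37 for the brightest probe of a heavy chain.

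**Figure D2:**
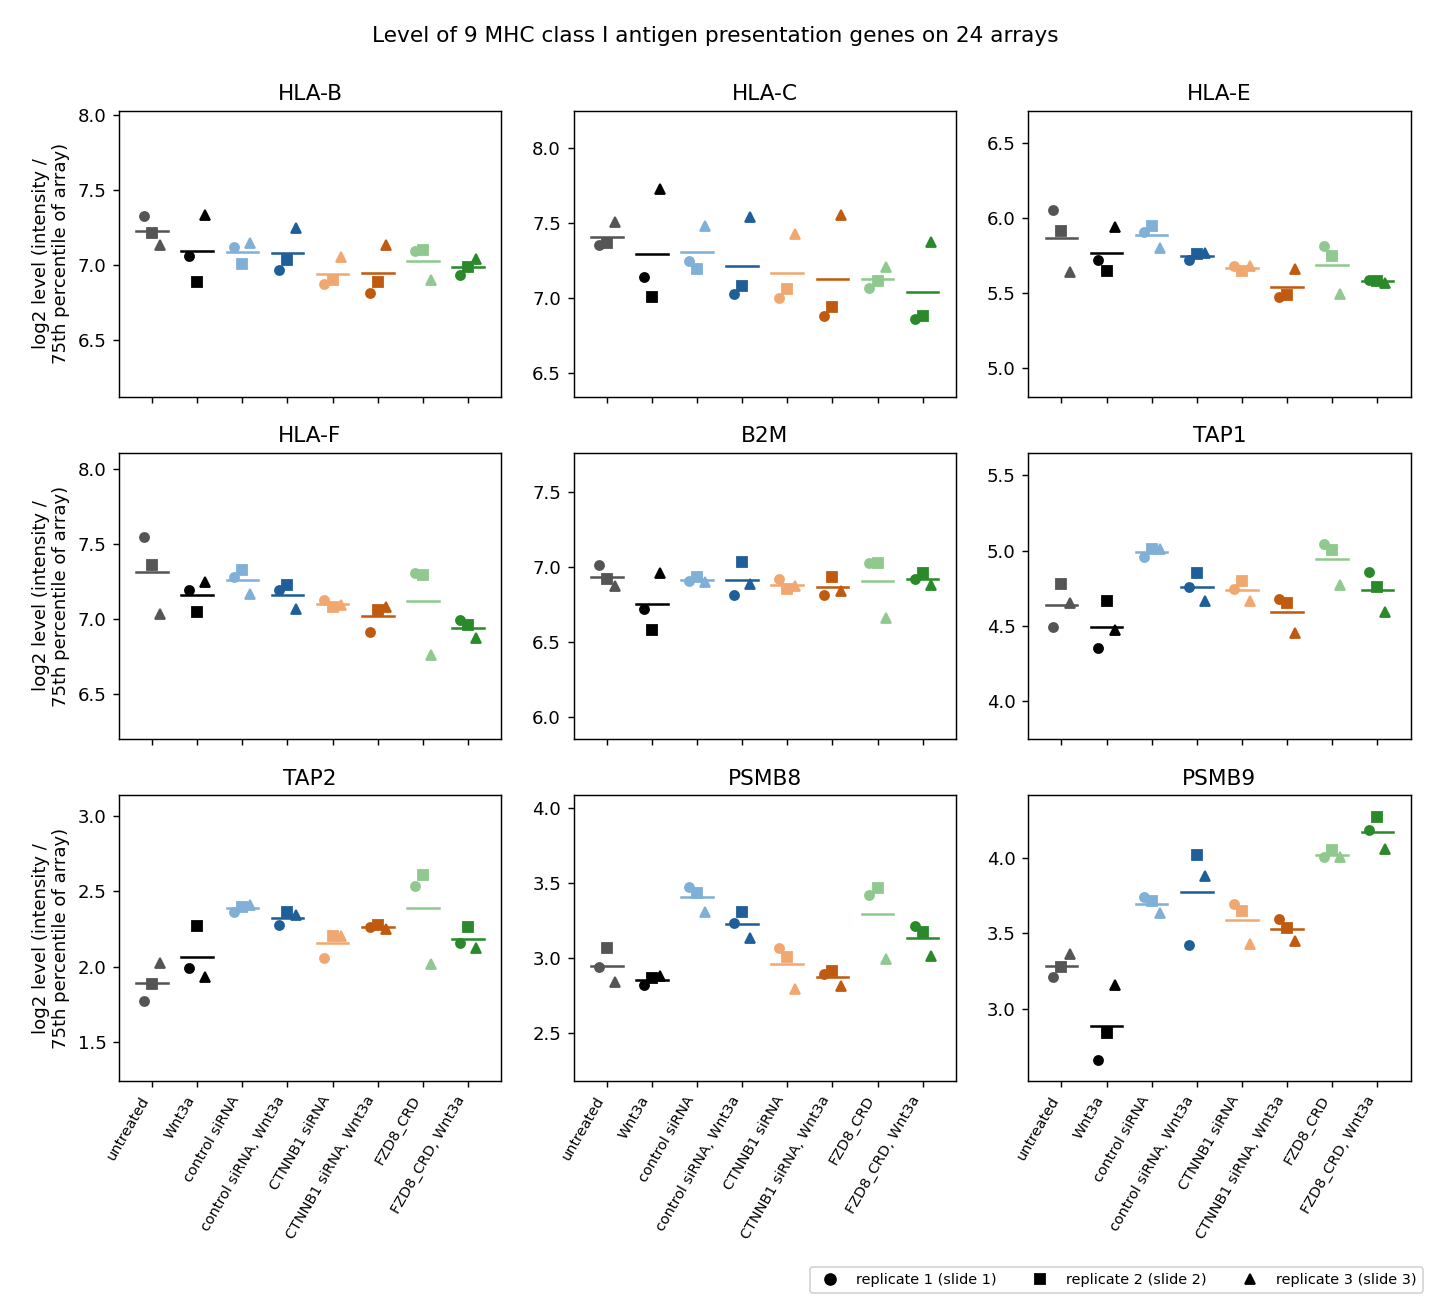
Log2 level (y axis) of the 9 members in the 8 conditions (x axis), with a panel for each gene, a point for each of 24 arrays shaped by slide, and a bar at each mean. PSMB9 spans means from 2.88 with Wnt3a to 4.18 with FZD8_CRD and Wnt3a, while B2M spans 0.18.

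Differences between conditions are log2, tested with limma over all 24 arrays, and called at an adjusted p under 0.05 (Benjamini-Hochberg over 24647 genes). The share of all genes called in a comparison is given beside the members' count. A scaling to 7 spike-in probes in place of the 75th percentile moved the all-gene medians by -0.40 to 0.26, so members under it are read relative to its all-gene median. The authors' own scaling stands for the values they deposited, tested over 20052 genes, so the genes tested changed as well. Comparisons that use the same control arrays are not independent of each other, and no likeness between them is measured.

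Wnt3a on untransfected cells was the first comparison. None of the 9 members was called by limma, where 5.42% of all genes were. By limma 1 of 9, PSMB9, had an unadjusted p under 0.05, beside 5234 of all 24647 genes. Members lay mostly a little lower with Wnt3a. PSMB9 differed by -0.40 (fold 0.759, adjusted p 0.0669), was lower on all 3 slides (-0.55, -0.44 and -0.20) without overlap, and with slide as a block had an adjusted p of 0.044. The median of members was -0.13 against 0.02 for all genes, with 8 of 9 below 0 under this scaling and TAP2 (0.17) turning to -0.18 with spike-in scaling. Among all genes called, 771 were higher and 564 lower, and with spike-in scaling 23 and 166.

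Slide 3 differed from slides 1 and 2 in this comparison. HLA-B differed by -0.27, -0.33 and 0.20 on slides 1, 2 and 3, HLA-C by -0.21, -0.36 and 0.22, HLA-E by -0.33, -0.27 and 0.30, HLA-F by -0.35, -0.31 and 0.21, and B2M by -0.29, -0.34 and 0.09. Heavy chains and B2M were thus lower with Wnt3a on 2 slides and higher on the third. Leaving out replicate 3 made 7 members called, B2M (-0.32), HLA-B (-0.30), HLA-C (-0.29), HLA-E (-0.30), HLA-F (-0.33), PSMB9 (-0.50) and TAP2 (0.30). The share of all genes called is not given for fits that leave arrays out, here or below, so this count has no such reference. Leaving out only the third Wnt3a array made PSMB9 (-0.53, adjusted p 0.01) and B2M (-0.29, adjusted p 0.0461) called. Over the 3 slides the heavy chains are therefore reported as not called.

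After electroporation no member was called with Wnt3a. With control siRNA limma called 0 of 9 members (2.02% of all genes). TAP1, at -0.24 (adjusted p 0.242), was the 1 member with an unadjusted p under 0.05, beside 3462 of all 24647 genes. The median of members was -0.09 against 0.03 for all genes; spike-in scaling turned 6 of the 8 members below 0 to above 0 (quantile scaling and the authors' scaling turned B2M and HLA-B) and moved the split of genes called from 262 higher and 235 lower to 56 and 1, yet the members' median of 0.07 stayed under the all-gene median of 0.19. With CTNNB1 siRNA limma called 0 of 9 (0.0406% of all genes), and no member had an unadjusted p under 0.05, beside 2585 of all 24647 genes. Values ran from -0.14 for TAP1 to 0.11 for TAP2 (-0.02 with spike-in scaling).

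No member was called either when Wnt3a was added to cells with FZD8_CRD. When Wnt3a was added to FZD8_CRD, limma called 0 of 9 members (8.24% of all genes). TAP1 at -0.20 (adjusted p 0.23) was the 1 member with an unadjusted p under 0.05, beside 5004 of all 24647 genes. PSMB9 lay 0.15 higher, on non-overlapping arrays, and TAP2 -0.21 and HLA-F -0.18. Without the third FZD8_CRD array HLA-F (-0.36), PSMB8 (-0.31), TAP1 (-0.29) and TAP2 (-0.39) were called. Without all of replicate 3 the calls were HLA-C, HLA-E, HLA-F, PSMB8 and TAP2. Genes called in the whole set were 1118 higher and 912 lower, and 172 and 91 with spike-in scaling.

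With control siRNA TAP1, TAP2, PSMB8 and PSMB9 rose, while the heavy chains and B2M were not called. Against untreated cells 4 of 9 members were called, all higher, where 22.4% of all genes were called (3061 higher, 2466 lower; 155 and 1411 with spike-in scaling). TAP2 rose by 0.50 (fold 1.41, adjusted p 0.00353), PSMB8 by 0.45 (fold 1.37, adjusted p 0.00308), PSMB9 by 0.42 (fold 1.33, adjusted p 0.0208) and TAP1 by 0.35 (fold 1.28, adjusted p 0.0106). Each was higher on all 3 slides with no overlap of arrays: TAP2 by 0.59, 0.51 and 0.39, PSMB8 by 0.53, 0.37 and 0.46, PSMB9 by 0.54, 0.43 and 0.28, and TAP1 by 0.47, 0.24 and 0.36. With slide as a block their adjusted p were 0.00171, 0.00019, 0.015 and 0.00212 in that order. With spike-in scaling none of the 4 was called; relative to the all-gene median they were 0.53, 0.49, 0.45 and 0.39.

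The heavy chains differed by -0.13 (HLA-B), -0.10 (HLA-C), 0.02 (HLA-E) and -0.05 (HLA-F), and B2M by -0.02, none of them called; HLA-E turned to -0.24 with spike-in scaling. The median of members was 0.02 against -0.03 for all genes. PSMB9 lost its call without untreated array 1 (0.38, adjusted p 0.0871), control siRNA array 1 (0.39, adjusted p 0.0692), untreated array 2 (0.42, adjusted p 0.0506) or control siRNA array 2 (0.41, adjusted p 0.0572). TAP1 lost it without untreated array 1 (0.28, adjusted p 0.0781). Without all of replicate 1 none of the 4 was called (adjusted p 0.152 for PSMB8, 0.136 for PSMB9, 0.193 for TAP1 and 0.159 for TAP2). Without replicate 2 PSMB8 alone kept its call (adjusted p 0.179 for PSMB9, 0.0579 for TAP1 and 0.0555 for TAP2), and without replicate 3 HLA-B gained one (-0.21, adjusted p 0.0476).

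In the presence of Wnt3a, control siRNA against no siRNA gave a call for PSMB8 and PSMB9 only. That is 2 of 9 members, where 8.86% of all genes were called. By limma 4 members had an unadjusted p under 0.05, beside 5621 of all 24647 genes. PSMB9 rose by 0.89 (fold 1.85, adjusted p 0.00131), with 0.76, 1.19 and 0.72 on the slides, and PSMB8 by 0.37 (fold 1.29, adjusted p 0.0293), with 0.41, 0.44 and 0.26. Neither overlapped the arrays without siRNA. TAP1 and TAP2 were each 0.26 higher without a call (adjusted p 0.0937 and 0.168). With slide as a block TAP1 was called as well (adjusted p 0.0302). The members' median was 0.16 against -0.02 for all genes. HLA-B, HLA-C and HLA-E lay slightly below 0 here and above 0 with spike-in scaling. With that scaling PSMB9 stood 0.91 above the all-gene median and kept its call (adjusted p 0.0332). PSMB8 stood 0.39 above that median and lost its call (0.62, adjusted p 0.337). It also lost it with no filter (adjusted p 0.0577) and with a fit of only the conditions compared (adjusted p 0.178).

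Single arrays decided several of these calls. PSMB8 lost its call without Wnt3a array 1 (0.35, adjusted p 0.134) or 3 (0.38, adjusted p 0.0625), and without the control siRNA and Wnt3a array 1 (0.36, adjusted p 0.0591), 2 (0.33, adjusted p 0.145) or 3 (0.41, adjusted p 0.0512). Without Wnt3a array 2, TAP1 (0.35, adjusted p 0.0223) and TAP2 (0.37, adjusted p 0.0414) were called. Without replicate 1 or replicate 2, PSMB8 was not called (adjusted p 0.343 and 0.239). PSMB9 kept its call without any single array and lost it without all of replicate 1 (0.96, adjusted p 0.056) and with a fit of only the conditions compared (0.89, adjusted p 0.178).

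With CTNNB1 siRNA PSMB8 fell, and the other members were not called. CTNNB1 itself fell by 3.04 against control siRNA (adjusted p 1.46e-09) and by 3.02 with Wnt3a (adjusted p 9.65e-10). Without Wnt3a, 1 of 9 members was called, where 10.5% of all genes were. By limma 3 members had an unadjusted p under 0.05, beside 5609 of all 24647 genes. PSMB8 fell by 0.45 (fold 0.734, adjusted p 0.00708), by 0.40, 0.42 and 0.51 on the slides and without overlap, which returned it to 2.96, beside 2.95 in untreated cells. With slide as a block TAP1 was called too (-0.26, adjusted p 0.0289, against 0.0947 without it). All 9 members were below 0, with a median of -0.16 against -0.03 for all genes, though B2M (-0.03) turned to 0.02 with spike-in scaling and above 0 with quantile and the authors' scaling. PSMB8 with spike-in scaling was -0.41 relative to the all-gene median and not called.

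TAP2 (-0.24), HLA-E (-0.22) and HLA-F (-0.16) also lay below their controls on arrays that did not overlap, without a call. PSMB9 differed by only -0.11 (adjusted p 0.727). With a fit of only the conditions compared TAP1, TAP2 and HLA-E were called. PSMB8 lost its call without CTNNB1 siRNA array 3 (-0.36, adjusted p 0.0573), without replicate 1 (-0.47, adjusted p 0.158) and without replicate 2 (-0.46, adjusted p 0.13), and HLA-E gained one without replicate 3 (-0.26, adjusted p 0.0145).

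With Wnt3a present, CTNNB1 siRNA again gave a call for PSMB8 alone, 1 of 9 members, where 10.6% of all genes were called. By limma 2 members had an unadjusted p under 0.05, beside 5386 of all 24647 genes. PSMB8 fell by 0.35 (fold 0.785, adjusted p 0.0307), by 0.34, 0.39 and 0.32 on the slides, with no overlap. All 9 members were below 0 here and with spike-in scaling, and their median was -0.14 against -0.02. HLA-E was at -0.21 (adjusted p 0.194), and PSMB9 at -0.25 with 0.18, -0.49 and -0.43 on the slides. Genes called were 986 higher and 1622 lower, and 40 and 753 with spike-in scaling, where PSMB8 was not called and stood at -0.33 relative to the median.

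The PSMB8 call with Wnt3a rested on single arrays. It was lost without the control siRNA and Wnt3a array 1 (-0.34, adjusted p 0.0826) or 2 (-0.31, adjusted p 0.124), and without the CTNNB1 siRNA and Wnt3a array 1 (-0.36, adjusted p 0.0628), 2 (-0.37, adjusted p 0.0678) or 3 (-0.32, adjusted p 0.111). It was also lost without replicate 1 (adjusted p 0.261) or replicate 2 (adjusted p 0.327). Without the control siRNA and Wnt3a array 1 PSMB9 was called (-0.42, adjusted p 0.0219), and without replicate 3 HLA-E was (-0.26, adjusted p 0.0127).

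With FZD8_CRD PSMB9 had the largest difference of the 9 members. Against untreated cells 4 of 9 members were called, all higher, where 41.9% of all genes were called, 4888 higher and 5428 lower (576 and 7433 with spike-in scaling). PSMB9 rose by 0.74 (fold 1.67, adjusted p 8.92e-05), by 0.80, 0.78 and 0.65 on the slides, without overlap. TAP2 rose by 0.50 (fold 1.41, adjusted p 0.00154), and PSMB8 by 0.34 (fold 1.27, adjusted p 0.0103) and TAP1 by 0.30 (fold 1.23, adjusted p 0.0149), which turned to -0.06 and -0.10 with spike-in scaling. With that scaling none of the 4 calls was kept: PSMB9 stood at 0.34 (adjusted p 0.344) and TAP2 at 0.10 (adjusted p 0.794). Relative to its all-gene median of -0.48, PSMB9 stood at 0.82, TAP2 at 0.58, PSMB8 at 0.42 and TAP1 at 0.38. The spike-in shift differed by slide. The log2 level of the spike-in probes was 2.64, 2.90 and 3.45 on slides 1 to 3 with FZD8_CRD. It was 2.60, 2.42 and 2.76 in untreated cells.

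Slide 3 showed the smallest difference for each of the 4 genes, and the arrays of PSMB8, TAP1 and TAP2 overlapped the untreated ones. PSMB8 differed by 0.48, 0.40 and 0.15 on slides 1 to 3 and TAP1 by 0.55, 0.23 and 0.12, and TAP2 by 0.77 and 0.73 on slides 1 and 2 with none on slide 3. PSMB8 lost its call without FZD8_CRD array 1 (0.28, adjusted p 0.0559) or 2 (0.26, adjusted p 0.0732), and TAP1 without untreated array 1 (0.23, adjusted p 0.0929) or FZD8_CRD array 1 (0.25, adjusted p 0.0686) or 2 (0.27, adjusted p 0.0594). TAP1 was also not called with the authors' deposited values, tested over 20052 genes (0.24, adjusted p 0.0654). Without replicate 1 or replicate 2, TAP2 (0.36, adjusted p 0.134; 0.38, adjusted p 0.0717), PSMB8 (0.28, adjusted p 0.205; 0.31, adjusted p 0.124) and TAP1 (0.18, adjusted p 0.306; 0.34, adjusted p 0.0629) were not called, while PSMB9 stayed called in 9 of 9 leave-outs. With a fit of only the conditions compared, PSMB9 alone of the 4 was called.

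The heavy chains lay lower with FZD8_CRD without a call: HLA-C at -0.28, HLA-B at -0.19, HLA-F at -0.19 and HLA-E at -0.18, and below 0 with every scaling run. HLA-B was lower on each slide (-0.23, -0.12 and -0.23) without overlap. HLA-C was too (-0.29, -0.25 and -0.30), and was called with slide as a block (adjusted p 0.0202) and with spike-in scaling (-0.68, adjusted p 0.0422), where it stood at -0.20 relative to the all-gene median of -0.48. HLA-E was called with quantile scaling (-0.22, adjusted p 0.0294). Without untreated array 3, HLA-E (-0.30, adjusted p 0.0142) and HLA-F (-0.33, adjusted p 0.0342) were called, and without replicate 3 HLA-C (-0.27) and HLA-E (-0.20). B2M stood at -0.03. The median of members was -0.03 against -0.08 for all genes.

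Against Wnt3a alone, FZD8_CRD with Wnt3a gave the largest member difference of the 12 comparisons, in PSMB9. Called were 2 of 9 members, PSMB9 and PSMB8, where 37.1% of all genes were called (4502 higher and 4654 lower, or 662 and 2168 with spike-in scaling). By limma 3 members had an unadjusted p under 0.05, beside 11133 of all 24647 genes. PSMB9 rose by 1.29 (fold 2.45, 95% interval 1.03 to 1.55, adjusted p 6.28e-07), by 1.53, 1.44 and 0.91 on the slides. It kept its call with spike-in scaling (1.15, adjusted p 0.00481) and in 9 of 9 leave-outs. PSMB8 rose by 0.28 (fold 1.21, adjusted p 0.0373), by 0.39, 0.31 and 0.14 on the slides, and neither gene overlapped its controls. The Wnt3a arrays were themselves the lowest for PSMB9, 2.88 on average.

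PSMB8 lost this call without Wnt3a array 1 (0.26, adjusted p 0.104), 2 (0.28, adjusted p 0.0625) or 3 (0.29, adjusted p 0.0598), and without FZD8_CRD and Wnt3a array 1 (0.24, adjusted p 0.129) or 2 (0.26, adjusted p 0.102). It was also lost without replicate 1 (adjusted p 0.351) or replicate 2 (adjusted p 0.199), and with quantile (0.21, adjusted p 0.0684) and spike-in scaling (0.14, adjusted p 0.792). The authors' deposited values, tested over 20052 genes, lost it too (0.23, adjusted p 0.0663). HLA-E (-0.19) and HLA-F (-0.22) lay lower on arrays that did not overlap, without a call. HLA-E was called with quantile scaling (-0.27, adjusted p 0.01) and with the authors' deposited values (-0.24, adjusted p 0.0327). TAP1 lay at 0.24 (adjusted p 0.0531) and was called with slide as a block (adjusted p 0.0157), as was HLA-C at -0.25 (adjusted p 0.0373). TAP1 was also called with a filter on all arrays (adjusted p 0.0494), without Wnt3a array 2 (0.33) or the third array with FZD8_CRD and Wnt3a (0.31), and B2M (0.16) without Wnt3a array 3 (0.27, adjusted p 0.028). Without replicate 3, B2M (0.29, adjusted p 0.012), HLA-C (-0.20, adjusted p 0.0178) and TAP1 (0.30, adjusted p 0.0337) were called. TAP2 stood at 0.12, turning to -0.02 with spike-in scaling. The members' median was 0.12 against -0.08 for all genes.

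**Figure D3:**
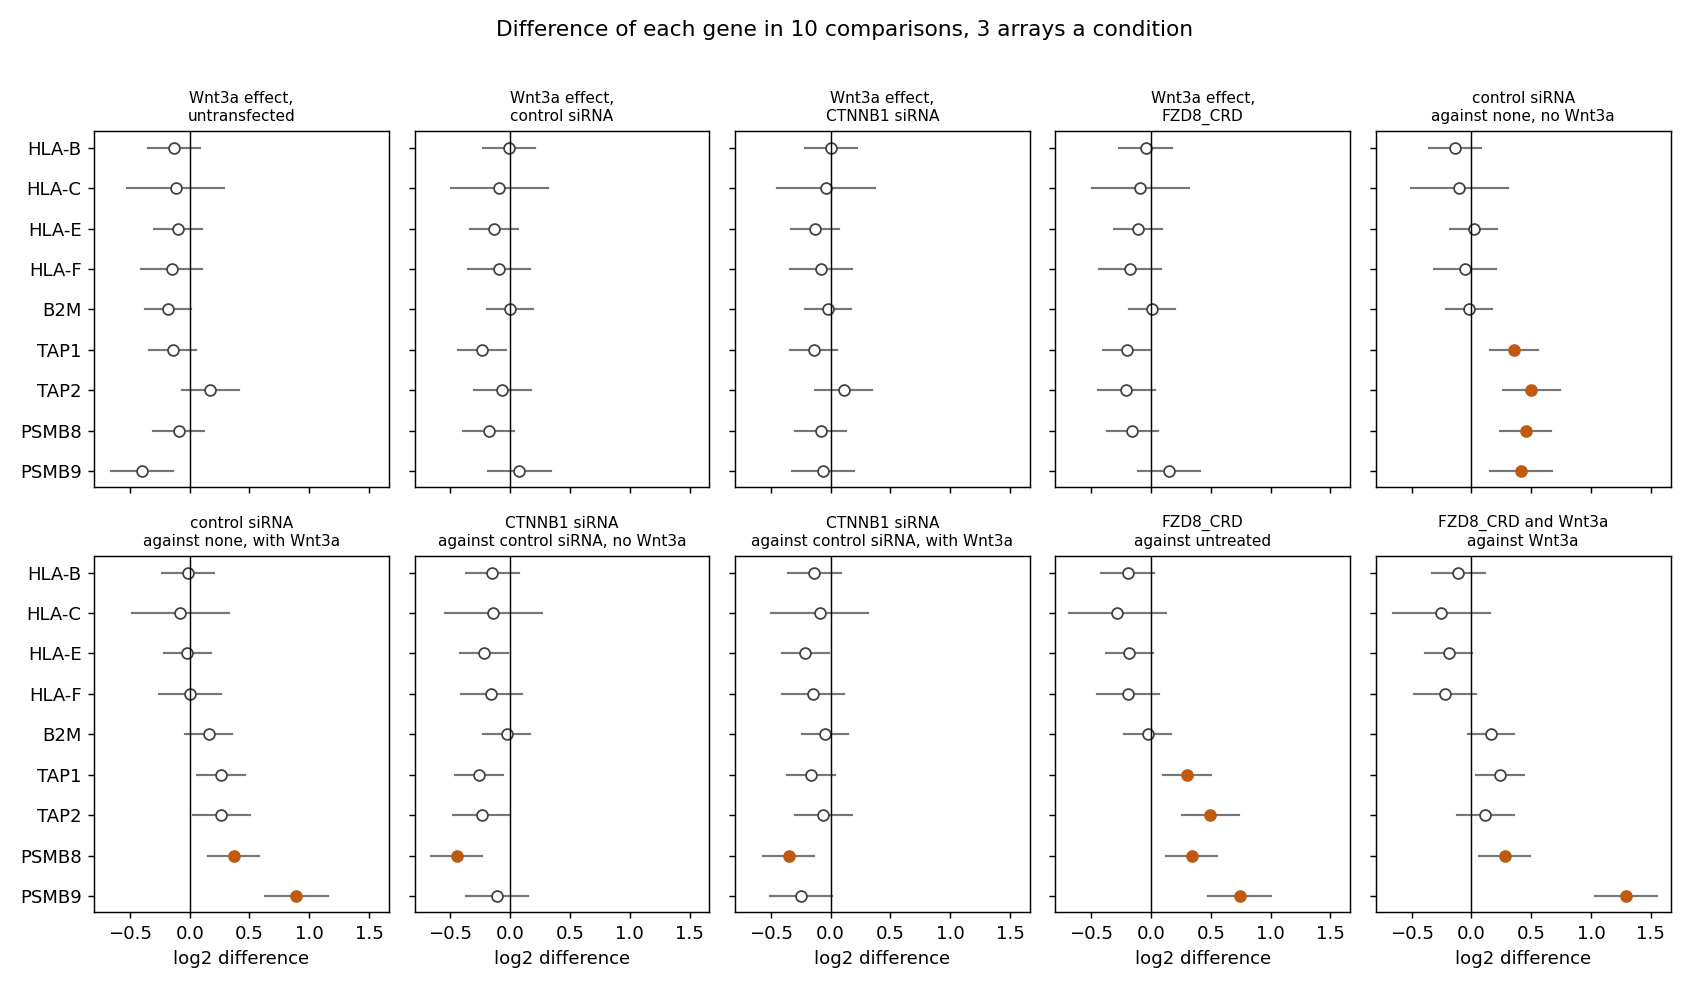
Log2 difference (x axis) of each member in 10 comparisons, with 95% intervals from limma and filled points where the adjusted p is under 0.05. PSMB9 stands at 1.29 with FZD8_CRD and Wnt3a against Wnt3a; PSMB8 (0.34) and TAP1 (0.30) with FZD8_CRD against untreated turn below 0 with spike-in scaling.

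**Figure D4:**
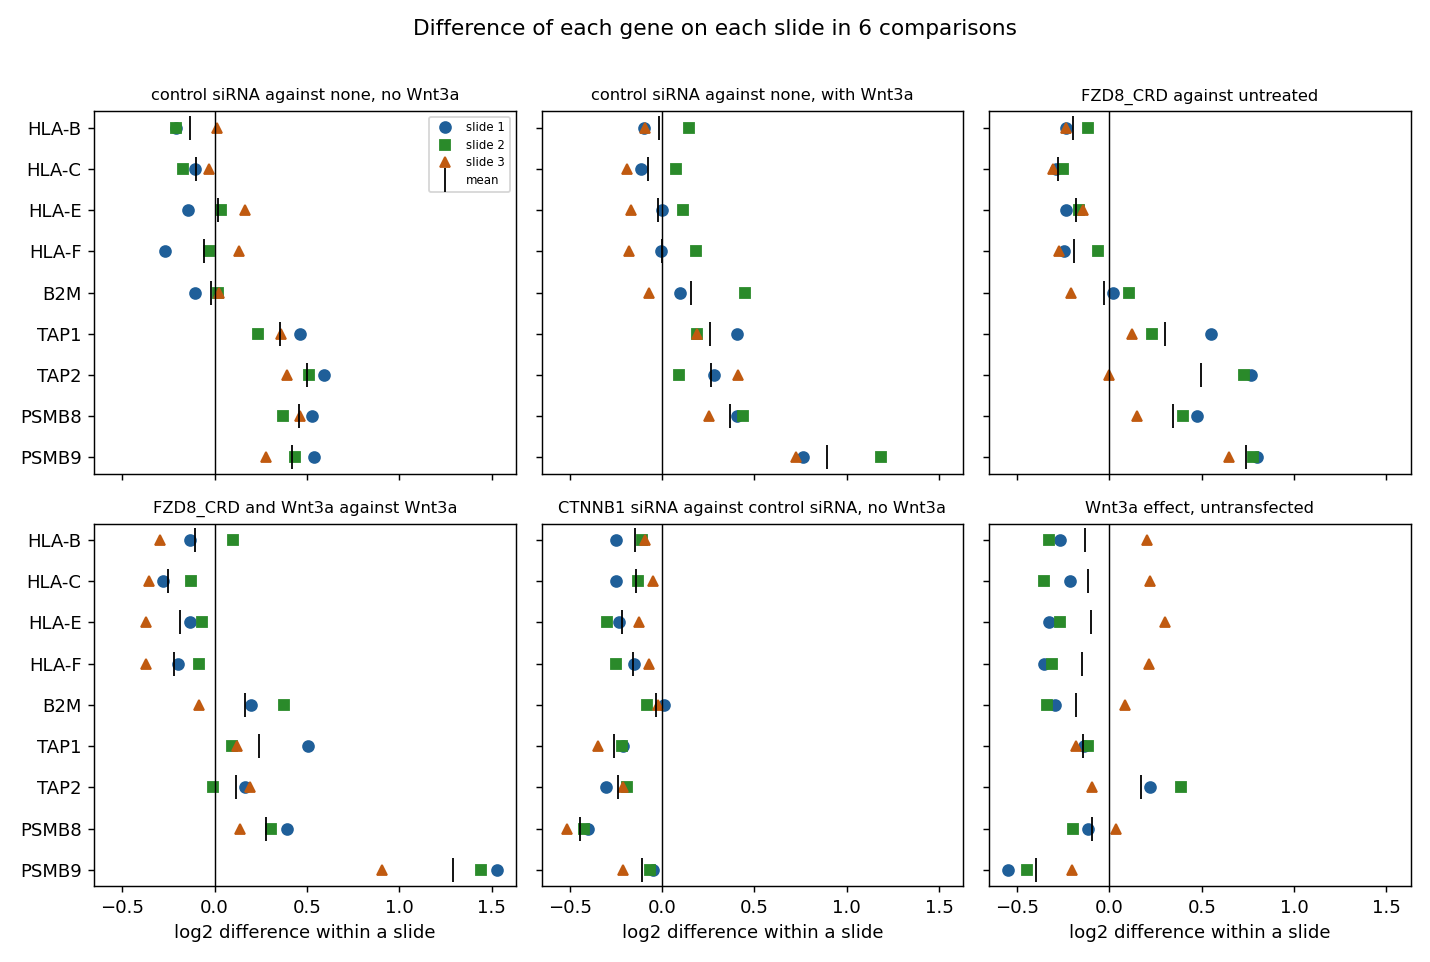
Log2 difference of each member on each of the 3 slides (x axis) in 6 comparisons, with a point for each slide and a tick at the mean. TAP2 with FZD8_CRD against untreated is 0.77 and 0.73 on slides 1 and 2 and near 0 on slide 3; with spike-in scaling PSMB8 and TAP1 in that comparison turn below 0.

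Whether the Wnt3a response depended on FZD8_CRD or on the CTNNB1 siRNA was tested as an interaction. For FZD8_CRD against untransfected cells limma called 0 of 9 members, beside 0.073% of all genes. These were 5 higher and 13 lower, 32 and 2 with spike-in scaling, and 12 and 15 with quantile scaling. By limma 2 members had an unadjusted p under 0.05, beside 3110 of all 24647 genes. PSMB9 differed by 0.55 (limma, adjusted p 0.184; 0.73, 0.66 and 0.26 on the slides) and TAP2 by -0.38 (limma, adjusted p 0.319; -0.60, -0.73 and 0.20). Without replicate 3 they were called, PSMB9 at 0.70 (adjusted p 0.0413) and TAP2 at -0.67 (adjusted p 0.00662), and TAP2 also without FZD8_CRD array 3 (-0.57, adjusted p 0.00499). For CTNNB1 against control siRNA limma called 0 of 9 (0.0162% of all genes), and no member had an unadjusted p under 0.05, beside 819 of all 24647 genes. Values ran from -0.14 for PSMB9 to 0.18 for TAP2. The effects of FZD8_CRD and of CTNNB1 siRNA with and without Wnt3a are therefore not shown to differ for any member; for control siRNA against none this was not tested.

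PSMB8 and PSMB9 replace subunits of a proteasome that has 14 constitutive 20S genes on the array. Many of these were called too. Counts for this and the lists below ignore slide unless stated. With slide as a block 11 of the 14 were called with control siRNA, where 7847 of all 24647 genes were. With control siRNA 5 of 14 were called, all higher (median 0.21), beside 22.4% of all genes, but spike-in scaling moved the all-gene median from -0.03 to -0.29 and so puts this median below 0. With Wnt3a present 5 were called, all higher (0.20), beside 8.86%. With FZD8_CRD 13 of 14 were called higher (0.36), beside 41.9% of all genes, but spike-in scaling moved every gene in that comparison by -0.40, which puts this median below 0. Against Wnt3a 12 were called higher (0.28), beside 37.1% of all genes. PSMB6, the subunit that PSMB9 replaces, rose by 0.52 with FZD8_CRD and 0.57 against Wnt3a, beside 0.74 and 1.29 for PSMB9. PSMB5, which PSMB8 replaces, rose by 0.45 and 0.61, beside 0.34 and 0.28 for PSMB8, whose 0.34 turned below 0 with spike-in scaling.

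With CTNNB1 siRNA none of the 14 was called, beside 10.5% of all genes, with a median of -0.10. With slide as a block 2 of the 14 were called, where 4056 of all 24647 genes were. PSMB10, the third catalytic subunit of the immunoproteasome, fell by 0.33 with CTNNB1 siRNA (adjusted p 0.00705) and by 0.28 with Wnt3a present (adjusted p 0.0199), beside falls of 0.45 and 0.35 in PSMB8. It was not called with control siRNA (0.18, adjusted p 0.109) or FZD8_CRD (-0.04), and fell by 0.25 when Wnt3a was added to FZD8_CRD (adjusted p 0.0469). PSMB7, which PSMB10 replaces, rose by 0.17 with FZD8_CRD (adjusted p 0.0475), which the spike-in shift of -0.40 puts below 0, and by 0.20 against Wnt3a (adjusted p 0.0255).

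**Figure D5:**
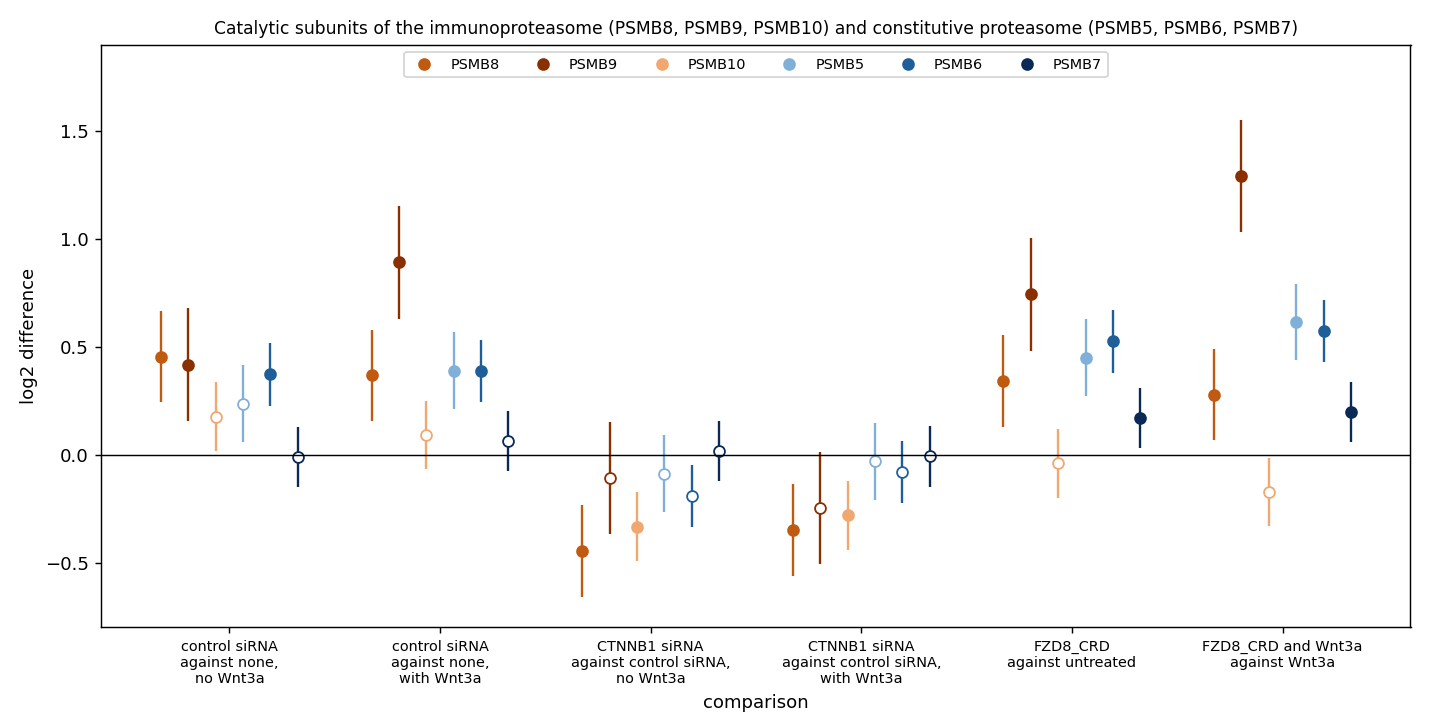
Log2 difference (y axis) of PSMB8, PSMB9 and PSMB10 and of the constitutive PSMB5, PSMB6 and PSMB7 in 6 comparisons, with 95% intervals and filled points where called. PSMB8 (-0.45) and PSMB10 (-0.33) fall with CTNNB1 siRNA; PSMB8 with FZD8_CRD (0.34) turns below 0 with spike-in scaling.

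Another 17 genes of peptide processing and loading were read as a list. With CTNNB1 siRNA 1 of the 17 lay above 0 and the others below. With control siRNA 3 were called higher and 1 lower (median 0.07; 22.4% of all genes called), with CTNNB1 siRNA 3 lower (-0.20; 10.5%), with FZD8_CRD 3 higher and 5 lower (-0.04; 41.9%), and against Wnt3a 5 higher and 6 lower (-0.06; 37.1%). TAPBP, which bridges TAP and the heavy chain, fell by 0.39 with FZD8_CRD and fell by 0.20 against Wnt3a. ERAP2, which trims peptides, rose by 0.58 with control siRNA and 0.58 with FZD8_CRD. UBD, a ubiquitin-like modifier, fell by 1.94 with control siRNA and fell by 2.03 with FZD8_CRD.

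Regulators of these genes were read as 14 genes. NLRC5, which switches on class I genes, rose by 0.43 with control siRNA (adjusted p 0.0316) and by 0.35 with FZD8_CRD (adjusted p 0.0499), where the spike-in shift of -0.40 puts it below 0; the value with control siRNA stays above 0 but smaller. IRF1 fell by 0.43 with CTNNB1 siRNA and Wnt3a (adjusted p 0.0214) and lay at -0.26 without Wnt3a (adjusted p 0.198). Of the 14, control siRNA had 2 called higher and 1 lower (22.4% of all genes called), FZD8_CRD 5 and 2 (41.9%), FZD8_CRD against Wnt3a 4 and 2 (37.1%), and CTNNB1 siRNA none (10.5%). With slide as a block 2 of the 14 were called with CTNNB1 siRNA, where 4056 of all 24647 genes were. The part of these regulators in the members' levels was not tested.

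Genes of the interferon pathway were read beside the members. With control siRNA, where 22.4% of all genes were called, 2 of 16 interferon signalling genes were called higher and 1 lower. Among 24 interferon-stimulated genes 5 were called higher and 5 lower there (median 0.05). Of 16 interferon signalling genes, CTNNB1 siRNA had 2 called lower, where 10.5% of all genes were called, and FZD8_CRD 4 higher and 5 lower, where 41.9% were. Of 24 interferon-stimulated genes, 9 were called lower with CTNNB1 siRNA (median -0.28; 10.5% of all genes called) and none higher, beside PSMB8 at -0.45; with FZD8_CRD 3 were higher and 12 lower (-0.19; 41.9%), beside PSMB9 at 0.74.

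MHC class II genes, which present peptides from outside the cell, were tested for 11 genes. None was called with control siRNA (22.4% of all genes), and 1 was with slide as a block. With CTNNB1 siRNA 3 were called lower (median -0.42, 10.5%), and with FZD8_CRD 7 were (median -0.49, 41.9%). Class I-like genes numbered 10, with 4 called higher and 2 lower with control siRNA (median 0.33), 1 higher and 4 lower with CTNNB1 siRNA, and 4 higher and 3 lower with FZD8_CRD (0.28, which the spike-in shift of -0.40 puts below 0), beside the same shares of all genes.

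The probes read whole cultures, so fewer cells of a type and less RNA per cell cannot be told apart. Sums of markers below add levels before log2, so the brightest markers weigh most in them. Of 11 liver and progenitor markers 10 were tested; the mean level was 8.13 for KRT19, 8.01 for ALB and -4.45 for HNF4A, and EPCAM was above background on 1 array. Their summed level, relative to the 75th percentile, was 1844, 1526 and 1104 in untreated cells, 1277, 855 and 1284 with Wnt3a, 849, 823 and 770 with control siRNA, and 674, 625 and 661 with control siRNA and Wnt3a. It was 1029, 905 and 962 with CTNNB1 siRNA, 684, 774 and 867 with Wnt3a as well, 826, 721 and 949 with FZD8_CRD, and 988, 985 and 916 with FZD8_CRD and Wnt3a. Singly, 5 of the 10 were called lower with control siRNA and none higher (22.4% of all genes called). With FZD8_CRD 6 were called lower and 2 higher (41.9%). The sum was highest in untreated cells on slides 1 and 2 and with Wnt3a on slide 3. With control siRNA and with FZD8_CRD it lay below untreated cells on every slide. TAP1, TAP2, PSMB8 and PSMB9 stood the other way by their means in those groups, except that PSMB8 and TAP1 lay below untreated cells with FZD8_CRD under spike-in scaling, and TAP2 did not differ on slide 3 with FZD8_CRD; the part of the markers in the result was not tested.

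Of 8 endothelial and fibroblast markers 7 were tested, and THY1 was on no array. Mean levels were 4.44 for DCN, 2.55 for LUM and 1.10 for KDR, with the others at -3.11 or lower. The sum of these markers is therefore carried mainly by DCN. Their sum was 41.7, 62.5 and 51.2 in untreated cells, 85.8, 75.6 and 88.8 with Wnt3a, 35.8, 42.6 and 28.8 with control siRNA, and 50.8, 49.3 and 45.9 with control siRNA and Wnt3a. It was 17.7, 15.4 and 14.5 with CTNNB1 siRNA, 17.0, 17.7 and 16.4 with Wnt3a as well, 28.1, 25.0 and 15.6 with FZD8_CRD, and 18.1, 18.6 and 19.7 with FZD8_CRD and Wnt3a. CTNNB1 siRNA lay below control siRNA, and Wnt3a above all other groups, without overlap. FZD8_CRD also lay below untreated cells without overlap. Singly, 4 of the 7 were called lower with CTNNB1 siRNA (10.5% of all genes called) and 2 with FZD8_CRD (41.9%), and none higher. With Wnt3a in untransfected cells 2 of the 7 were called higher and none lower (5.42% of all genes called). There 4 of the 7 lay above 0, and the lowest was at -0.44. PSMB8 fell with CTNNB1 siRNA beside these markers, but with FZD8_CRD PSMB9 rose while they were lower, and PSMB8 rose too unless scaled to spike-in probes, and their part in the result was not tested.

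Of 12 immune cell markers 8 were tested, with CD68 at a mean of 1.14, PTPRC at -3.85, and MS4A1 and CD163 among those not kept. Their sum was 8.28, 6.94 and 5.65 in untreated cells, 6.88, 6.45 and 7.57 with Wnt3a, 6.30, 6.52 and 5.97 with control siRNA, and 6.01, 6.33 and 7.21 with control siRNA and Wnt3a. It was 4.34, 3.83 and 4.05 with CTNNB1 siRNA, 4.02, 3.98 and 4.95 with Wnt3a as well, 4.76, 4.23 and 5.37 with FZD8_CRD, and 5.33, 4.93 and 5.96 with FZD8_CRD and Wnt3a. By this sum CTNNB1 siRNA lay below control siRNA without overlap, beside the fall of PSMB8, and FZD8_CRD below untreated cells without overlap, where PSMB9 rose. Singly, 1 of the 8 was called lower with CTNNB1 siRNA (10.5% of all genes called) and 2 with FZD8_CRD (41.9%). In each comparison 2 of the 8 lay above 0. The part of these markers in the result was not tested.

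Among members over 24 arrays, TAP1 and PSMB8 followed each other most closely outside the heavy chains (correlation 0.87, and 0.86 after slide means were removed), ahead of TAP1 with TAP2 (0.68) and PSMB8 with PSMB9 (0.60). Heavy chains and PSMB9 ran from -0.31 to -0.21, and from -0.47 (HLA-C) to -0.23 (HLA-B) after slide means were removed. Genes with a symbol whose levels were most like the mean of the members, out of 15991 and chosen after values were seen, were APEH (0.88), HCP5 (0.88), AIMP2 (0.87), SPCS1 (0.83), S100A3 (0.82), STOML2 (0.82), ADGRF5 (0.81), LOC407835 (0.81), PMPCA (0.81) and ATP6V1E1 (0.80). After slide means were removed, the first 10 were MRPL36 (0.93), HDDC2 (0.92), APEH (0.89), HCP5 (0.89), WDR74 (0.87), AIMP2 (0.87), GRB2 (0.86), LOC407835 (0.85), MAP2K2 (0.85) and SPCS1 (0.85). HCP5 lies in the class I region and APEH is a peptidase; no test of these likenesses was made.

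The second probes of HLA-B, HLA-F and TAP2 were called in none of the 12 comparisons, and so did not repeat the TAP2 calls. The second HLA-B probe read 6.60 on average, with means that spanned 0.22, and lay at -0.13 with control siRNA (adjusted p 0.729), -0.08 with CTNNB1 siRNA (adjusted p 0.913) and -0.13 with FZD8_CRD (adjusted p 0.642). The second HLA-F probe, for another transcript, had means that spanned 0.97, from untreated cells to CTNNB1 siRNA with Wnt3a. With Wnt3a it lay lower by non-overlapping arrays in cells with control siRNA (-0.38, adjusted p 0.291) and with CTNNB1 siRNA (-0.36, adjusted p 0.461), and at -0.36 in untransfected cells (adjusted p 0.205), where slide 3 was higher. It lay at -0.47 with CTNNB1 siRNA (adjusted p 0.0724), at -0.46 with Wnt3a present (adjusted p 0.088) and at -0.40 with FZD8_CRD (adjusted p 0.0557). The second TAP2 probe, also for another transcript than the brighter one, read -4.69 on average, well above background on all 24 arrays. It lay at 0.40 with control siRNA (adjusted p 0.0685) and 0.09 with FZD8_CRD (adjusted p 0.668), against 0.50 in each for the brighter probe.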

How the data were processed

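The values were the processed, background-subtracted signal that the authors deposited in the scanner files. The median signal was used only for the normexp alternative. The slides were read per the labels with Agilent Feature Extraction 10.7.3.1 and per the file headers with version 10.7.1.1. Each array's intensity was divided by its 75th percentile, floored at 1.43% of it (log2 -6.13), turned into log2, and averaged over the spots of a probe with outlier spots left out. Of 50683 probes, 31065 were kept, those with signal well over background in every replicate of some condition, and each gene was read by its brightest probe. RefSeq symbols were found for 20503 genes on 28174 probes.

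A limma means model over 8 conditions gave 12 comparisons, with Benjamini-Hochberg adjustment over 24647 genes. The tools were R 4.3.3, limma 3.58.1, data.table (1.17.8), Python 3.11.15, pandas 2.3.3, numpy 2.4.6 and matplotlib 3.10.9. Pairing by slide was checked on pairs of arrays from different conditions, correlated after each gene's condition mean was subtracted. Of pairs with the same replicate number 82 of 84 were over 0.1 (mean 0.38), and of those with different numbers 3 of 168 (mean -0.19). The main fit ignores slide, and the fit with slide as a block is given as an alternative. Other alternatives were quantile, spike-in and the authors' own scaling, normexp background, a floor of 1, no filter, a filter on all arrays, outlier spots kept, the mean of a gene's probes, probes as features, only the conditions compared, an unadjusted p with a fold threshold, and leaving out arrays or slides. The number of arrays limits the precision.

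Genes named are the 9 members with every probe; CTNNB1; list genes called in a comparison, with PSMB10, TAPBP, NLRC5, IRF1, PSMB5, PSMB6 and PSMB7 whatever their result; the 10 genes whose levels over 24 arrays had the highest Pearson correlation with the members' mean, before and after slide means were removed; and the markers. Some genes of the lists are not reported here. The members and lists were chosen with earlier results of these data known.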

Additional observations from a re-analysis of the deposited data

How the results depend on the processing

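Other processing gave 1404 values; of 182 for called results 32 lost the call and 2 reversed, and of 1222 for uncalled results 14 gained it. Leaving arrays out gave 1080 values; of 126 for called results 48 lost the call and none reversed, and of 954 uncalled 37 gained it. The normexp background, the floor, the mean of probes, probes as features and kept outlier spots moved no member call. With slide as a block 6 calls were gained and none lost. With 3 arrays a condition, signal over background shows RNA of whole cultures only, and low signals near background hold differences of unknown size. For all values below the cause was not tested.

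In brackets is the number of all genes called by the same fit, of 24647 tested (41258 with no filter). With slide as a block the members called were 1 for Wnt3a in untransfected cells (2797) and 3 for control siRNA against none with Wnt3a (3669). They were 2 for CTNNB1 siRNA against control siRNA without Wnt3a (4056), 5 for FZD8_CRD against untreated (13078) and 4 for FZD8_CRD and Wnt3a against Wnt3a (11914). With spike-in scaling they were 0 for control siRNA against none without Wnt3a (1566) and 1 with it (253), 0 for CTNNB1 siRNA against control siRNA without Wnt3a (203) and 0 with it (793), 1 for FZD8_CRD against untreated (8009; HLA-C, lower, and none of those called before) and 1 for FZD8_CRD and Wnt3a against Wnt3a (2830). An unadjusted p with a fold threshold gave 0 for control siRNA against none without Wnt3a (2681) and 1 with it (1357), 0 for CTNNB1 siRNA without Wnt3a (1404) and 0 with it (1603), 1 for FZD8_CRD against untreated (5525) and 1 for FZD8_CRD and Wnt3a against Wnt3a (4655). No filter gave 1 for control siRNA against none with Wnt3a (1503), 0 for CTNNB1 siRNA with Wnt3a (2312), and 1 for FZD8_CRD and Wnt3a against Wnt3a (8380). With only the conditions compared there were 0 for control siRNA against none with Wnt3a (1 gene in all), 4 for CTNNB1 siRNA without Wnt3a (4271), and 1 for FZD8_CRD against untreated (6317).

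The members' median with spike-in scaling was -0.48 for Wnt3a in untransfected cells, 0.067 with control siRNA and -0.19 with CTNNB1 siRNA. It was -0.24 for control siRNA against none without Wnt3a and 0.42 with it, -0.38 for CTNNB1 siRNA against control siRNA with Wnt3a, -0.43 for FZD8_CRD against untreated, -0.020 for FZD8_CRD and Wnt3a against Wnt3a, -0.27 for the siRNA interaction and 0.26 for the FZD8_CRD interaction. For CTNNB1 siRNA without Wnt3a it was -0.10 with quantile scaling, -0.10 with the authors' scaling and -0.22 with the mean of probes, and for the siRNA interaction -0.045 with the authors' scaling. Reversed with spike-in scaling were PSMB8 (-0.06) and TAP1 (-0.10) for FZD8_CRD against untreated.

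For fits that leave arrays out the number of all genes called is not given, so these counts have no such reference. Leaving out arrays, the members called ran from 0 to 7 for Wnt3a in untransfected cells (median -0.30 to -0.04), 0 to 0 with control siRNA (-0.09 to -0.04), 0 to 0 with CTNNB1 siRNA (-0.11 to -0.02) and 0 to 5 with FZD8_CRD (-0.22 to -0.05). They ran from 0 to 5 for control siRNA against none without Wnt3a (-0.05 to 0.11) and 0 to 4 with it (0.012 to 0.21), 0 to 2 for CTNNB1 siRNA without Wnt3a (-0.22 to -0.15) and 0 to 2 with it (-0.21 to -0.094), 1 to 6 for FZD8_CRD against untreated (-0.10 to 0.09), 1 to 5 for FZD8_CRD and Wnt3a against Wnt3a (0.05 to 0.15), 0 to 0 for the siRNA interaction (-0.016 to 0.064) and 0 to 2 for the FZD8_CRD interaction (-0.10 to 0.11).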
